A study of Arabidopsis thaliana with 6 samples.

Results

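The genes described here are the nuclear genes of Arabidopsis thaliana that carry a symbol of a photosystem subunit (PSA for photosystem I, PSB for photosystem II), of a light-harvesting antenna protein (LHCA, LHCB or CAB) or of the small subunit of Rubisco (RBCS). With earlier results of these data known, they were picked out by symbol alone, and 46 of the 33557 genes in the authors' gene table matched. They comprise 15 PSA, 12 PSB, 6 LHCA, 12 LHCB or CAB and 1 RBCS gene, and all 46 were tested by the authors. The label does not hold for all of them. PSAT1, a phospholipid:sterol acyltransferase gene, and PSAT, a phosphoserine aminotransferase gene, matched the PSA symbol without encoding photosystem proteins. They are counted among the 46 but not described as photosystem I genes. PSAP, first described as a photosystem I subunit and now known as the thylakoid curvature protein CURT1B, is kept among the 13 remaining PSA genes by its symbol and was not called.

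Total RNA came from whole seedlings aged 10 days, grown without any stated treatment, of the Colombia ecotype (spelled so in the labels). Of the 6 libraries, 3 came from plants labelled CPL4 knockdown, made by RNA interference, and 3 from wild type (Col). CPL4 is an RNA polymerase II phosphatase, directed at the tail of the polymerase's largest subunit. The sources used here state neither the construct's promoter nor the number of independent lines. The deposited tables hold 1 FPKM value (the authors' measure of fragments scaled to transcript length and library size) per gene and genotype, so no spread between libraries can be given for any gene, and every test is the authors' own. A gene is called higher or lower where the q-value in the authors' deposited table is under 0.05. Because these are whole seedlings, fewer cells of a type and less RNA per cell cannot be told apart.

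The FPKM of the targeted gene was not lower in these libraries. CPL4 (AT5G58003) stood at 8.84 FPKM in those labelled CPL4 knockdown, against 4.92 FPKM in wild type, with q = 6.39e-04 in the authors' deposited table. Reads from the construct, if it holds CPL4 sequence, would count here too. The value therefore does not show whether the plants' own CPL4 transcript fell, which was not tested. All directions below are those of the labels, and "labelled knockdown" means the libraries labelled CPL4 knockdown. Depth per library was known only over 75 snRNA regions, where summed read depth ran from 274395 to 2880572 in the labelled knockdown and from 2179594 to 7534954 in wild type. The lowest value belongs to labelled-knockdown replicate 3, whose weight in the FPKM values cannot be separated.

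In the thylakoid membrane, photosystem II oxidises water and photosystem I reduces ferredoxin. Each is surrounded by chlorophyll-binding antenna proteins that collect light, LHCB around photosystem II and LHCA around photosystem I. The reaction centre proteins, several small photosystem subunits and the large subunit of Rubisco are encoded in the plastid. Other photosystem subunits, the antenna and the Rubisco small subunit are encoded in the nucleus and imported. Transcripts of these nuclear genes are among the most abundant in green tissue and respond to light, the clock and signals from the chloroplast.

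In the labelled knockdown 7 of 13 photosystem I genes and 9 of 18 antenna genes fell, and 1 antenna gene, LHCB4.3, rose. Of 12 photosystem II genes, 1 fell and 2 rose, and RBCS1A was not called. Among the 46 genes, 17 fell and 3 rose, with 26 not called. The median log2 ratio of the 46 was −0.31, against −0.01 over the tested nuclear genes. It was −0.36 for the 13 photosystem I genes (−0.34 with PSAT and PSAT1), −0.05 for photosystem II and −0.39 for the antenna. In the background of 17898 tested nuclear genes, 22.5% were called, 9.83% lower and 12.7% higher. At q under 0.01, 12 members fell and 3 rose, against 5.53% and 8.22% of tested nuclear genes (13.8% in all). At an unadjusted p under 0.05, 22 were lower and 6 higher, against 15.8% and 18% (33.8% in all). The members are abundant, and other genes of at least 300 FPKM were called lower more often than tested nuclear genes at large. Of the 40 members with a mean of at least 300 FPKM, 17 fell and 2 rose, whereas of the other 143 tested nuclear genes at that level 39.2% were called, 23.8% lower and 15.4% higher.

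These genes make up a large part of the nuclear messenger RNA. In the labelled knockdown they held 16.7% of the summed FPKM of 26675 nuclear protein-coding genes, against 21.0% in wild type. The antenna genes accounted for most of this, at 9.04% in the labelled knockdown against 12.8% in wild type. CAB1 and LHCB1.5 ranked 1 and 2 among nuclear protein-coding genes in both genotypes, and 29 members in the labelled knockdown and 30 in wild type were among the 50 highest. The summed FPKM of the 46 was 80370 in the labelled knockdown and 104992 in wild type, a ratio of 0.765. By class the ratio of summed FPKM was 0.776 for photosystem I, 0.930 for photosystem II, 0.708 for the photosystem I antenna and 0.672 for the photosystem II antenna. RBCS1A, the member that stands for Rubisco, went the other way, with a ratio of 1.26.

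**Figure D1:**
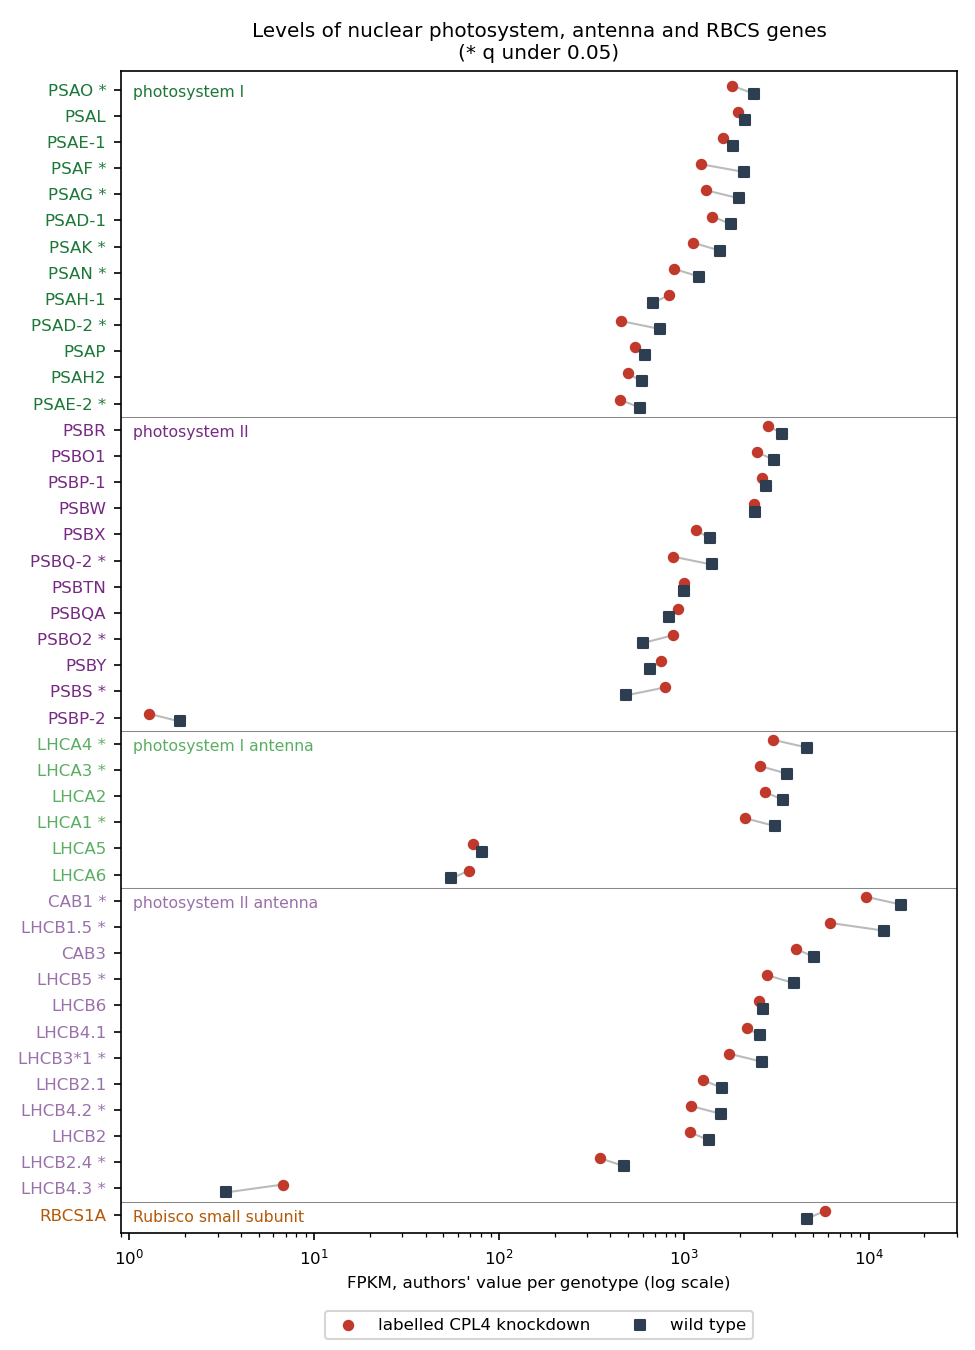
FPKM of 44 of the 46 genes (PSAT and PSAT1 left out) on a log axis, 1 authors' value per genotype, with the labelled CPL4 knockdown as red circles above wild type as dark squares, and an asterisk after genes with q under 0.05. The circle lies left of the square for 35 of the 44 genes, and for 28 of the 29 members whose mean is at least 1000 FPKM.

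Of the 13 photosystem I genes, 7 fell and 0 rose. PSAF, which with PSAN forms the docking side for plastocyanin, had the lowest log2 ratio of the class. PSAF (AT1G31330, chromosome 1, 11214824 to 11216037, TAIR10) had 1231 FPKM in the labelled knockdown against 2126 FPKM in wild type, 1.73-fold lower, with q = 6.39e-04 in the authors' deposited table. PSAN had 882 FPKM against 1213 FPKM in wild type, 1.38-fold lower, with q = 0.00749 in the authors' deposited table. Thus both genes of the plastocyanin side fell.

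On the stromal side, PSAD and PSAE hold ferredoxin, and each exists as a pair of genes. PSAD-2 had 459 FPKM in the labelled knockdown against 744 FPKM in wild type, with q = 6.39e-04 in the authors' deposited table. PSAD-1, the more abundant copy, had 1426 FPKM against 1804 FPKM in wild type and was not called, at q = 0.0705 in the authors' deposited table. PSAE-2 had 449 FPKM against 576 FPKM in wild type and fell, close to the threshold, with q = 0.0446 in the authors' deposited table. PSAE-1 had 1637 FPKM against 1854 FPKM in wild type and was not called. In both pairs the less abundant gene was called lower, while the more abundant one had a ratio below 1 and was not called. The difference between copies was not tested, and the PSAE-2 locus overlaps AT2G20270 in the authors' table.

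Among the subunits that bind antenna proteins at the edge of photosystem I, PSAG, PSAK and PSAO were called lower. PSAG had 1320 FPKM in the labelled knockdown against 1975 FPKM in wild type, a log2 ratio of −0.58, with q = 0.00166 in the authors' deposited table. In RefSeq's models 55.8% of its 100-base words, the length of a read, also occur in AT1G55673. PSAK had 1115 FPKM against 1563 FPKM in wild type, 1.40-fold lower, with q = 0.00448 in the authors' deposited table. PSAO, the most abundant of the class by the mean of both genotypes, had 1822 FPKM against 2379 FPKM in wild type, 1.31-fold lower, with q = 0.0378 in the authors' deposited table. PSAO, PSAL and PSAH lie where antenna of photosystem II can dock, and of these PSAL and both PSAH genes were not called. PSAL had 1961 FPKM in the labelled knockdown and 2134 FPKM in wild type. PSAH-1 alone of the 13 had a ratio above 1, with 828 FPKM against 683 FPKM in wild type and q = 0.136 in the authors' deposited table, and 47.0% of its 100-base words occur in AT3G16130, whose locus it overlaps. The other 5 not called ran from −0.34 to −0.12 in log2 ratio, among them PSAP.

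The photosystem I antenna is built of LHCA1 to LHCA4, and 3 of these 4 fell. LHCA4 (AT3G47470, at a locus that overlaps AT3G47460) had 3030 FPKM in the labelled knockdown against 4656 FPKM in wild type, 1.54-fold lower, with q = 6.39e-04 in the authors' deposited table. LHCA1, its partner in a dimer, had 2148 FPKM against 3120 FPKM in wild type, 1.45-fold lower, with q = 0.00586 in the authors' deposited table. LHCA3 had 2564 FPKM against 3629 FPKM in wild type, 1.42-fold lower, with q = 0.0115 in the authors' deposited table. LHCA2 had 2737 FPKM against 3453 FPKM in wild type and was not called, at q = 0.113 in the authors' deposited table. LHCA5 and LHCA6, scarce proteins that link photosystem I to the chloroplast NDH complex, were far less abundant. LHCA5 had 72.3 FPKM in the labelled knockdown and 80.5 FPKM in wild type, and LHCA6 had a log2 ratio of 0.32. Neither was called.

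Among the 12 photosystem II antenna genes, 6 fell and 1 rose. The major trimeric antenna is made of LHCB1, LHCB2 and LHCB3. CAB1 (AT1G29930, chromosome 1, 10478005 to 10479048), an LHCB1 gene, had 9631 FPKM in the labelled knockdown against 15003 FPKM in wild type, 1.56-fold lower, with q = 0.00211 in the authors' deposited table. LHCB1.5 (AT2G34420, chromosome 2, 14518406 to 14523568) had 6179 FPKM against 12158 FPKM in wild type, 1.97-fold lower, with q = 6.39e-04 in the authors' deposited table. This was the largest fall among the 46. In the authors' table its locus overlaps AT2G34410. CAB3 had 4053 FPKM against 5060 FPKM in wild type and was not called, at q = 0.142 in the authors' deposited table.

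LHCB3*1 had 1758 FPKM in the labelled knockdown against 2628 FPKM in wild type, a log2 ratio of −0.58, with q = 0.00211 in the authors' deposited table, and its locus overlaps AT5G54280. Among the 3 LHCB2 genes, LHCB2.4 had 354 FPKM against 476 FPKM in wild type and fell, with q = 0.0120 in the authors' deposited table. LHCB2 and LHCB2.1 had log2 ratios of −0.34 and −0.35 and were not called. All 3 LHCB2 genes had a ratio below 1. LHCB2.4 shares 36.3% of its 100-base words with AT3G27700.

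The minor antenna LHCB4, LHCB5 and LHCB6 connects the trimers to the core. LHCB5 had 2827 FPKM in the labelled knockdown against 3936 FPKM in wild type, 1.39-fold lower, with q = 0.0153 in the authors' deposited table. LHCB6 had 2550 FPKM against 2674 FPKM in wild type and was not called, at q = 0.798 in the authors' deposited table. The LHCB4 copies had different calls. LHCB4.2, at a locus that overlaps AT3G08943, had 1096 FPKM in the labelled knockdown against 1587 FPKM in wild type and fell, with q = 0.00211 in the authors' deposited table. LHCB4.1 had 2181 FPKM against 2565 FPKM in wild type and was not called. LHCB4.3 (AT2G40100, chromosome 2, 16745653 to 16747400) rose to 6.74 FPKM in the labelled knockdown, against 3.34 FPKM in wild type, 2.02-fold, with q = 6.39e-04 in the authors' deposited table. It is by far the least abundant LHCB4 copy, and its log2 ratio of 1.01 was the highest among the 46.

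The 2 LHCB4 copies of opposite call can be told apart by sequence. The aligned 100 coding bases with the fewest differences between LHCB4.3 (bases 521 to 620 of its coding sequence; gene at chr2:16745628-16747424, plus strand) and LHCB4.2 (bases 509 to 608; chr3:2717557-2718923, plus strand) are shown because they bear on whether reads could be shared. Capitals mark the 14 differing bases, and the sequence is RefSeq's on TAIR10.1.
LHCB4.3: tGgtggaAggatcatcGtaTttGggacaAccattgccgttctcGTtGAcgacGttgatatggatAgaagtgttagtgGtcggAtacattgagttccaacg
LHCB4.2: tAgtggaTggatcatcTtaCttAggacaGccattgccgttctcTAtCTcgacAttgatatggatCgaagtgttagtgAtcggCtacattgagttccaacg
Over their aligned coding sequences the pair was 72.6% identical, and neither transcript shared an unbroken 100-base word with any other gene.

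**Figure D2:**
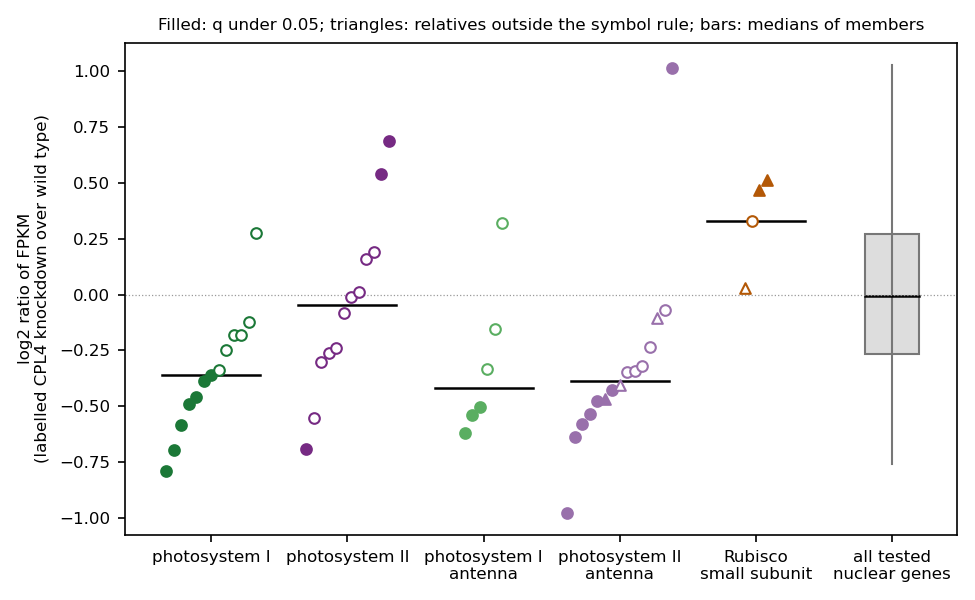
Log2 ratio of FPKM, labelled CPL4 knockdown over wild type, for each gene by class, filled where q is under 0.05, with triangles for relatives outside the symbol rule and black bars for the medians of members (PSAT and PSAT1 left out). The grey box spans the quartiles of tested nuclear genes and its line runs from the percentile 5 to 95. Photosystem I and antenna medians lie below 0 and RBCS1A above.

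Among the 12 photosystem II genes, 1 fell, 2 rose and 9 were not called. These shares, 8.33% lower and 16.7% higher, are near those over all tested nuclear genes, 9.83% and 12.7%. PSBS (AT1G44575, chromosome 1, 16871696 to 16873383), the sensor of lumen acidity that switches on thermal dissipation of excess light, rose to 788 FPKM in the labelled knockdown, against 489 FPKM in wild type. This is 1.61-fold, with q = 6.39e-04 in the authors' deposited table, and PSBS had the highest log2 ratio of the class, 0.69.

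The proteins PSBO, PSBP and PSBQ shield the manganese cluster where water is oxidised. PSBO2 (AT3G50820, chromosome 3, 18890876 to 18892426) rose to 876 FPKM in the labelled knockdown, against 602 FPKM in wild type, 1.45-fold, with q = 0.00166 in the authors' deposited table. PSBO1, the major copy, had 2479 FPKM against 3056 FPKM in wild type and was not called, at q = 0.167 in the authors' deposited table. PSBQ-2 fell to 873 FPKM in the labelled knockdown, against 1411 FPKM in wild type, 1.62-fold, with q = 6.39e-04 in the authors' deposited table. PSBQA had 925 FPKM against 828 FPKM in wild type and was not called, at q = 0.447 in the authors' deposited table. The PSBO copies were therefore closer in level in the labelled knockdown, and the order of the PSBQ copies was turned round. Whether the copies differ in response was not tested, since the tables hold no value per library.

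To show how far the PSBO copies can be separated by reads, the 100 aligned coding bases with the fewest differences are given, bases 865 to 964 of PSBO2 (chr3:18890874-18892508, minus strand) and 868 to 967 of PSBO1 (chr5:26568572-26570461, plus strand), from RefSeq's TAIR10.1. Capitals mark the 5 differing bases.
PSBO2: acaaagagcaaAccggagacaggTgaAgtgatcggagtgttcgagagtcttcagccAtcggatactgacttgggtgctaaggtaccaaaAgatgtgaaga
PSBO1: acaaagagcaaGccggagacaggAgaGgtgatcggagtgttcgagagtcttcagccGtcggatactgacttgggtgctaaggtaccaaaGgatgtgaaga
The pair was 83.8% identical over the aligned coding bases and shared no 100-base word, and the PSBQ pair was 80.0% identical.

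The remaining photosystem II genes were not called. PSBR, the most abundant, had 2866 FPKM in the labelled knockdown against 3380 FPKM in wild type, and PSBP-1 had 2629 FPKM against 2785 FPKM. The low molecular mass subunits PSBW, PSBTN, PSBX and PSBY had log2 ratios of −0.01, 0.01, −0.26 and 0.19. PSBP-2 was nearly silent, with 1.27 FPKM in the labelled knockdown and 1.87 FPKM in wild type.

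The Rubisco small subunit is encoded by a family of 4 genes, of which RBCS1A alone carries an RBCS symbol in the authors' table. RBCS1A (AT1G67090) had 5823 FPKM in the labelled knockdown against 4637 FPKM in wild type and was not called, at q = 0.122 in the authors' deposited table. The other 3 were found through RefSeq names after the values of the 46 had been seen. RBCS3B (AT5G38410) rose to 3106 FPKM in the labelled knockdown, against 2244 FPKM in wild type, 1.38-fold, with q = 0.0145 in the authors' deposited table. RBCS2B (AT5G38420) rose to 1017 FPKM, against 712 FPKM in wild type, 1.43-fold, with q = 0.00295 in the authors' deposited table. RBCS1B (AT5G38430) had 273 FPKM in the labelled knockdown and 267 FPKM in wild type. All 4 had a ratio above 1, although dividing by the sum over all nuclear genes, protein-coding or not, turned RBCS1B to a log2 ratio of −0.09. Their summed FPKM was 10219 in the labelled knockdown against 7860 in wild type, which was 2.12% and 1.58% of nuclear protein-coding FPKM.

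RBCS3B and RBCS1B share sequence, so that the split of reads between them is uncertain. Their longest shared coding run is 230 bases, bases 322 to 551 of RBCS3B (chr5:15376988-15378642, minus strand) and 307 to 536 of RBCS1B (chr5:15383167-15385320, minus strand), printed from RefSeq's TAIR10.1 because a read of 100 bases inside it could come from either gene.
RBCS3B and RBCS1B: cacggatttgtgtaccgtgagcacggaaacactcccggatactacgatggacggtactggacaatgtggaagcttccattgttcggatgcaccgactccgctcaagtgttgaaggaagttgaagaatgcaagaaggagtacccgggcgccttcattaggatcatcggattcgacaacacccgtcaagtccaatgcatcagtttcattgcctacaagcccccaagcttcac
Of the 100-base words of the RBCS3B transcript, 12.1% also occurred in RBCS1B, and 17.7% of those of RBCS1B in RBCS3B. RBCS2B, 97.3% identical to RBCS1B in coding sequence, shared no such exact word. This does not show whether shorter reads, or reads with mismatches, could be placed at either gene.

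In the antenna families too, RefSeq names added relatives whose symbols the rule does not match, again after values had been seen. CAB2, an LHCB1 gene listed as AB165, had 2622 FPKM in the labelled knockdown and 2818 FPKM in wild type and was not called. LHB1B1, also of the LHCB1 family, fell to 4036 FPKM, against 5575 FPKM in wild type, with q = 0.0263 in the authors' deposited table. The 5 LHCB1 genes therefore had 3 lower and 0 higher, with log2 ratios from −0.98 (LHCB1.5) to −0.10 (CAB2). LHCB7 (AT1G76570) was scarce, at 5.12 FPKM in the labelled knockdown and 6.78 FPKM in wild type. The LHCB1 coding sequences were between 87.4% and 96.4% identical and shared few exact 100-base words, at most 4.44% of a transcript (CAB2). Exact words do not show whether shorter reads, or reads with mismatches, could be placed at more than 1 copy.

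**Figure D3:**
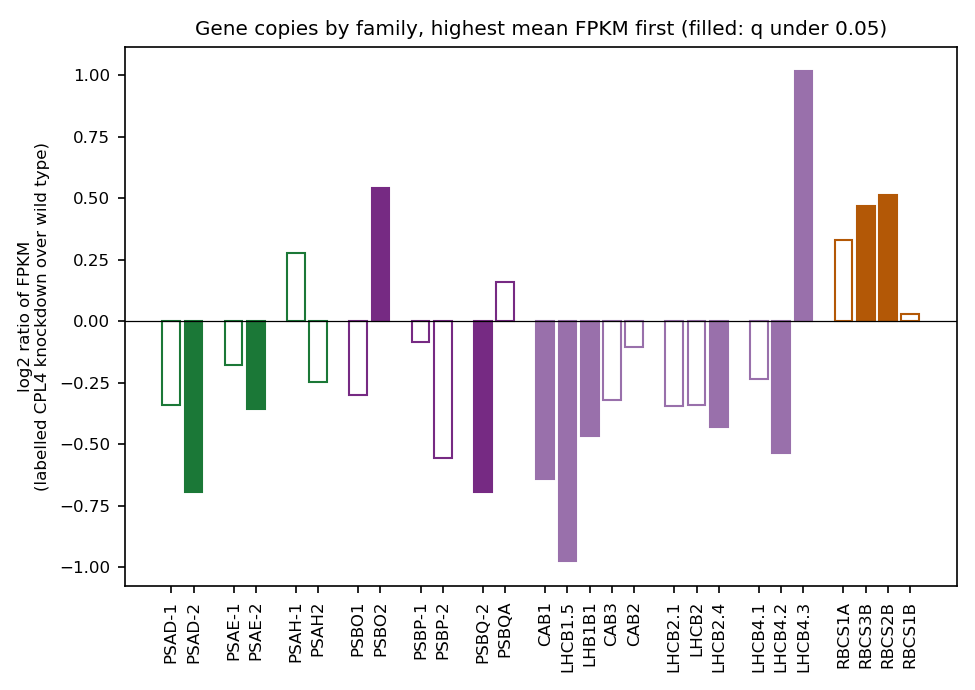
Log2 ratio of FPKM, labelled CPL4 knockdown over wild type, for the copies of 10 gene families, with the copy of highest mean FPKM first in each family and bars filled where q is under 0.05. Copies of LHCB1 and LHCB2 all lie below 0, and the copies of PSBO, LHCB4, PSAH and PSBQ lie on both sides. Those of RBCS lie above 0 (RBCS1B at −0.09 after dividing by the sum over all nuclear genes, protein-coding or not).

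The transcription start groups of the authors' second table put nearly all of each gene's FPKM at 1 start group in both genotypes. The 46 genes had 53 start groups, 51 of them tested, of which 16 were called lower and 3 higher, against 7.34% and 10.2% of all 20159 tested start groups (17.5% in all). Of the 6 genes with more than 1 start group, each had a leading group that held at least 93.5% of its FPKM in wild type and 94.7% in the labelled knockdown, the lowest values being those of LHCA3. The leading group of LHCB4.3 had 6.52 FPKM in the labelled knockdown against 3.34 FPKM in wild type and rose, with q = 0.00142 in the authors' deposited table. Only PSAE-2 was called in the gene table and not among start groups, where q = 0.0539 in the authors' deposited table.

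Motifs known from light- and clock-regulated promoters were counted on both strands in RefSeq's TAIR10.1. These were the G-box CACGTG, the I-box GATAAG, the evening element AAAATATCT, the CCA1 site AAAAATCT and the TATA box TATAAA. In the 250 bases before the transcript start, 10 of 44 members (22.7%) held a G-box and 10 (22.7%) an I-box, against 6.49% and 12.3% of 27443 nuclear protein-coding genes. The evening element was in 1 member (2.27%, against 2.36%), the CCA1 site in 3 (6.82%, against 6.69%) and the TATA box in 21 (47.7%, against 47.3%). Starts can differ between annotations, and 39.0% of 32797 matched nuclear genes had the same locus start in RefSeq. For PSBS, called higher, the window (chr1:16869971-16870220) ends well before the authors' locus start at 16871696.

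A second window, the 300 bases before the coding start, which includes any 5′ leader, was added after the first had been seen. There 19 members (43.2%) held a G-box and 26 (59.1%) an I-box, against 6.23% and 15.4% of all genes. The evening element was in 0 (against 2.29%), the CCA1 site in 5 (11.4%, against 8.10%) and the TATA box in 16 (36.4%, against 47.2%). In the first window a G-box was in 4 of the 17 members called lower, 0 of the 3 called higher and 6 of the 24 not called, and an I-box in 5, 0 and 5 of them. In the second window a G-box was in 5, 1 and 13 of them, and an I-box in 10, 2 and 14. A G-box and an I-box can share 1 base at their ends. These counts describe letters, and family copies share sequence.

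The PSBQ pair is shown as an example, since 1 copy was called lower and the other was not. Each sequence is the 250 bases before the transcript start in RefSeq's TAIR10.1, with G-boxes and I-boxes in capitals, at chr4:2673244-2673493 (minus strand) for PSBQ-2 and chr4:11334102-11334351 (plus strand) for PSBQA.
PSBQ-2: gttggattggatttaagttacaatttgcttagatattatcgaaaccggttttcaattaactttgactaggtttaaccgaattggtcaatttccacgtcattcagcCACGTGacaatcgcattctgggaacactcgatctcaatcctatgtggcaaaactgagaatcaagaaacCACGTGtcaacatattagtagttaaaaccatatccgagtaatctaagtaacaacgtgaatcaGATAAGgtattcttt
PSBQA: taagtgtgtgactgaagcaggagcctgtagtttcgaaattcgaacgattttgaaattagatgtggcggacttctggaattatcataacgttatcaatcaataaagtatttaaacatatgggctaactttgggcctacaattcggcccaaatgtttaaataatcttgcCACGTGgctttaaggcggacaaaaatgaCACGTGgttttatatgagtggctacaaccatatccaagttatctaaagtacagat
Both windows hold 2 G-boxes, and that of PSBQ-2 holds 1 I-box as well. A match describes the letters and not a bound factor.

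Other genes of photosynthesis were counted from lists, to be read beside the 12.7% higher and 9.83% lower among all tested nuclear genes. Of 17 Calvin-Benson cycle genes, 5 rose and 0 fell, with a median log2 ratio of 0.19. Most of these genes are abundant. Of the 143 tested nuclear genes of at least 300 FPKM outside the 46 members, 15.4% were higher and 23.8% lower. The aldolase genes led, FBA1 with 647 FPKM in the labelled knockdown against 266 FPKM in wild type, 2.43-fold. FBA2 had 1497 FPKM against 828 FPKM in wild type and FBA3 had 103 FPKM against 61.2 FPKM. GAPA, of glyceraldehyde phosphate dehydrogenase, had 1101 FPKM against 809 FPKM in wild type. All these were called higher in the authors' deposited table.

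Of 24 chlorophyll synthesis genes, 6 rose and 1 fell, against 12.7% and 9.83% of all tested nuclear genes. PORA, the protochlorophyllide reductase of dark-grown seedlings, had 32.5 FPKM in the labelled knockdown against 4.03 FPKM in wild type, 8.06-fold. PORB, which serves green seedlings too, was the single fall, with 465 FPKM against 844 FPKM in wild type. GUN5, the H subunit of magnesium chelatase, had 884 FPKM against 541 FPKM in wild type, and HEMA1, of the first committed step, had 187 FPKM against 138 FPKM. The median log2 ratio of the 24 was −0.03.

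Of 15 electron transport and ATP synthase genes, 2 rose and 2 fell, shares near those over all tested nuclear genes (12.7% higher and 9.83% lower). The ferredoxin gene FD2 had 1441 FPKM in the labelled knockdown against 829 FPKM in wild type, and FD1 had 179 FPKM against 133 FPKM. FNR2, of ferredoxin-NADP reductase, had 320 FPKM against 630 FPKM in wild type, and the LHCII phosphatase gene TAP38 had 99.6 FPKM against 132 FPKM. Of 20 assembly and repair genes, 4 rose and 1 fell. Among them FTSH8 (1.57-fold) and FTSH1 (1.40-fold), proteases that clear damaged photosystem II protein, and the assembly factor gene HCF244 (1.48-fold) rose. LPA1, which assists assembly of photosystem II, had 20.8 FPKM in the labelled knockdown against 28.9 FPKM in wild type and was the 1 that fell. OHP1, a single-helix relative of the antenna proteins, had 51.9 FPKM against 30.1 FPKM in wild type, and 2 of the 6 tested light-stress relatives rose in all.

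Of 21 regulators, 5 rose and 5 fell, against 12.7% and 9.83% of all tested nuclear genes. Of the 6 plastid sigma factor genes, SIGC, SIGD and SIG6 fell, with log2 ratios of −0.78, −0.72 and −0.46, SIGE rose, with 0.54, and SIGA and SIGB were not called. CIA2, an activator of chloroplast protein import and translation genes, fell too, with 23.9 FPKM against 35.4 FPKM in wild type. PHYB, of the red light receptor, had 31.7 FPKM against 21.7 FPKM in wild type and rose. The other genes that rose were GUN1, of signalling from plastid to nucleus (log2 ratio 0.51), GLK2, an activator of antenna genes (0.35), and PIL6 (0.35), and the other that fell was PIF3 (−0.41).

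**Figure D4:**
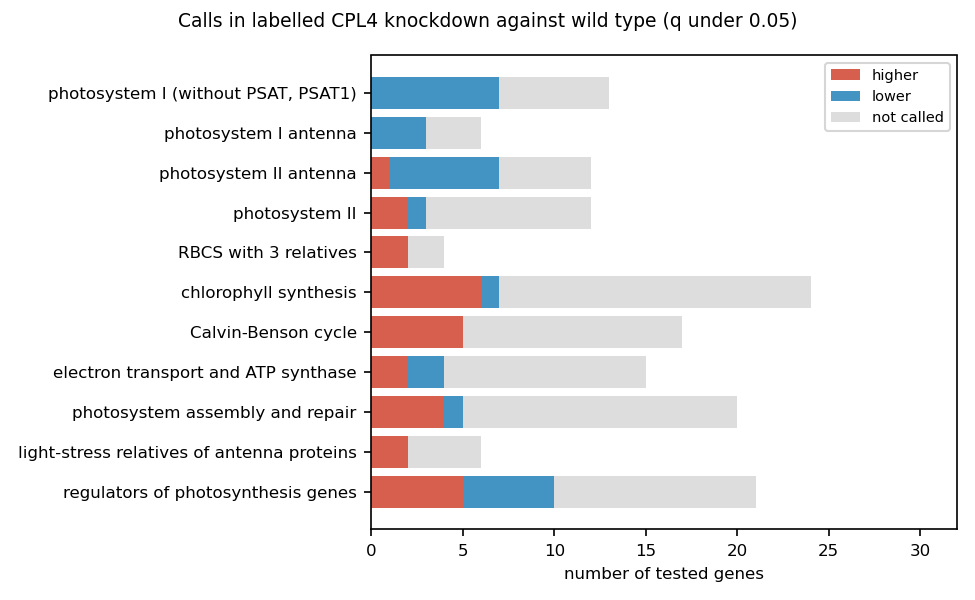
Number of tested genes called higher (red), lower (blue) or not called (grey) in the labelled CPL4 knockdown against wild type at q under 0.05, for the classes described and for other photosynthesis lists. Photosystem I and both antenna classes show 7, 3 and 6 lower calls, and the Calvin-Benson cycle shows 5 higher and 0 lower. Over all tested nuclear genes 12.7% were higher and 9.83% lower.

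None of the tested plastid-encoded partners was called lower. Of 21 plastid genes (RBCL and genes with a photosystem symbol), 14 were tested, with a median log2 ratio of 0.27. Among the 14, 2 rose, PSAJ and PSBT, and 0 fell, against 12.7% higher and 9.83% lower among tested nuclear genes. PSBG (ATCG00430), also among the 14 and not called, was included by its symbol alone, and its place in a photosystem was not checked. RBCL and 6 photosystem genes exceeded the depth the authors' test handles and have no usable value.

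Some marker genes of other tissues and states were called as well, where 12.7% of all tested nuclear genes were higher and 9.83% lower. Of 12 root markers, 5 were tested and 2 fell, CASP1 and CASP2 of the endodermis. The summed FPKM of the root list was 12.1 in the labelled knockdown and 18.0 in wild type, and no marker was at 0 in both genotypes. Both tested seed markers of 7 rose, CRA1 with 9.65 FPKM against 0.278 FPKM in wild type, and the seed list summed to 14.1 against 1.42 FPKM in wild type. Of 7 tested genes of the senescence list, 3 rose, among them NYE1, which removes magnesium from chlorophyll, with 11.8 FPKM against 5.84 FPKM in wild type. The SEN1 entry, AT3G45590, was matched by symbol alone and may not be the senescence gene of that name. It had 2.50 FPKM in the labelled knockdown and 2.30 FPKM in wild type and was not called. The senescence list summed to 187 FPKM in the labelled knockdown and 153 FPKM in wild type. None of 5 guard cell line markers was called, and their sums were 31.5 and 39.2 FPKM in the labelled knockdown and wild type. The part of these shifts in the photosystem and antenna results was not tested.

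The members were also split by level, at a value chosen after they had been seen. Of the 29 with a mean of at least 1000 FPKM, 14 fell and 0 rose. Of the other 22 tested nuclear genes at that level, 54.5% were called, 13.6% lower and 40.9% higher. Of the 17 members below it, 3 fell and 3 rose, where 22.5% of other tested nuclear genes were called, 9.76% lower and 12.7% higher. Across the 46 genes the Spearman correlation of mean FPKM and log2 ratio was −0.32, as a description of points that share the same libraries. Most changes were small. At q under 0.05 and at least 1.5-fold, 6 of the 46 members fell and 2 rose. Both limits together were passed by 5.78% (lower) and 8.03% (higher) of tested nuclear genes (13.8% in all). The deposited loci of 10 members overlap another gene, 6 of them antenna genes. Without these 6, the antenna genes left had 6 calls, in place of 10 calls among all 18 antenna genes.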

How the data were processed

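RNA of 6 libraries was depleted of ribosomal RNA, copied into cDNA by a PCR-based kit and read from both ends at 100 bp, per the labels' protocols. The sources used here state neither strand use nor how reads of several origins were placed, so overlapping and antisense genes cannot be separated. Tools listed in the submitters' processing notes are Cuffdiff 2.2.1.3, TopHat2 2.0.14, SAMtools, CASAVA 1.8.2 and Trim Galore 0.4.0, with the build TAIR10. The authors deposited FPKM with 1 value per genotype, and the p-value and q-value of the authors' Cuffdiff test, for genes and start groups, per the file headers. A deposited table of read depth signal over 75 snRNA regions gives the only values per library.

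Log2 ratios were recomputed from FPKM, because the deposited column holds spreadsheet errors in some rows, with no pseudocount or filter. Precision per library is unknown. Locus starts were raised by 1 to count from 1. Names and sequences came from RefSeq TAIR10.1, matched by locus for 32797 nuclear genes and all 46 members. Every member called, the 2 most abundant genes and the extremes of each class are given, and up to 4 called genes of at least 5 FPKM from each other list. All called regulators and CASP2 were added after their values were seen. The members and lists were chosen with earlier results of these data known. The relatives named through RefSeq, the shared-word check, the second motif window and the split of members at 300 and 1000 FPKM were chosen after seeing the values. Counting and motif search were tested on simulated data. Python 3.11.15, pandas 2.3.3, numpy 2.4.6, Biopython 1.88 and matplotlib 3.10.9 were used.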

Additional observations from a re-analysis of the deposited data

How the results depend on the processing

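Over 100 alternatives of 16 results, 83 stayed within 1.5 times the count or within 0.1 on the log2 scale. No median or ratio of sums changed direction, while counts of calls have no direction to change. The start group alternatives of medians and ratios add up the same FPKM and so had to stay. At an unadjusted p under 0.05, 6 members were higher, RBCS1A among them as the 1 Rubisco call. With a limit of 1.5-fold added to q under 0.05, 6 members were lower, with 2 photosystem I calls and 4 antenna calls. Without members whose locus overlaps another gene, 6 antenna calls were left, among fewer genes, since 6 of the 18 antenna genes were taken out. With the RBCS relatives, chosen after seeing the data, the family had 2 calls. Dividing by the sum over nuclear genes, which was 1.09-fold higher in the labelled knockdown (0.12 on the log2 scale), moved the median log2 ratio to −0.43 (from −0.31) for all members, −0.46 (from −0.34) for the 15 PSA genes, PSAT and PSAT1 included, −0.17 (from −0.05) for photosystem II, −0.51 (from −0.39) for the antenna and 0.21 (from 0.33) for RBCS1A. The ratios of summed FPKM then became 0.705, 0.715, 0.856, 0.627 and 1.16 in the same order. That sum includes nuclear genes that are not protein-coding. The members held 12.6% of it in the labelled knockdown and 17.9% in wild type, against 16.7% and 21.0% of the protein-coding sum. By these shares the protein-coding sum was lower, not higher, in the labelled knockdown, and dividing by it was not run. The causes were not tested. No paired analysis was possible because the tables hold 1 value per genotype, and leaving out a library was not run for the same reason. The depth behind each value is unknown, which limits members of low FPKM such as PSBP-2 and LHCB4.3.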
